A study of Homo sapiens with 36 samples.

Results

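The collagen genes were taken as the protein-coding rows of the gene table whose symbol is COL, a number, A and a number. They numbered 44 of 60675 genes, among 19586 protein-coding ones. By the kind of assembly their chains form, 11 were set apart as fibrillar collagens, 8 as basement membrane collagens and 25 as other collagens. RNA was sequenced in 36 libraries of 2 human cell lines, the astrocytoma line SW1783 and the colorectal adenocarcinoma line HT29, each grown for 24 h with an agent or with vehicle. In batch A, 3 libraries of a line received vehicle and 3 received wortmannin at 10 µM, which blocks PI3K, a lipid kinase, and served as positive control. In batch B, 3 libraries received vehicle and 3 each received a water extract of Aconitum carmichaeli Debeaux (ACD), labelled Aconiti Lateralis Radix Preparata, at 500 µg/mL (high), 100 µg/mL (medium) or 20 µg/mL (low). All vehicle libraries were labelled 0.1% DMSO, while other descriptions of the study give another concentration. Treated libraries were set against the vehicle libraries of the same batch to ask which collagen mRNAs differed, and in which line.

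Collagens are extracellular proteins whose chains wind around each other into a helix inside the cell before they are secreted. Fibrillar collagens, with type I the main one of bone, skin and scar, are trimmed outside the cell and packed into fibrils, whereas type IV forms the sheet-like network of basement membranes. Other types coat or link fibrils (the FACIT group), form beaded filaments (type VI), anchor epithelia (type VII) or span the cell membrane. Mesenchymal cells make most fibrillar collagen, while epithelial cells, from which HT29 derives, make mainly basement membrane and transmembrane types.

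Total counts per library were 18863852 to 26436841 in SW1783 and 15941250 to 33866636 in HT29, and a count of 0 allows up to 3 counts, or 0.113 to 0.159 CPM (counts scaled to the total of the library) in SW1783 and 0.0886 to 0.188 CPM in HT29, counting error only. The labelled line was checked against its markers. In HT29 the epithelial markers CDH1 (268 to 505 CPM) and KRT20 (233 to 312 CPM) were high. In SW1783 the glial markers GFAP, S100B, AQP4 and ALDH1L1 were each at 0.261 CPM or below in every library, and only SLC1A3 was counted clearly (5.58 to 50.1 CPM), while the mesenchymal markers VIM (4080 to 4970 CPM) and THY1 (219 to 427 CPM) were high. PDGFRB (31.4 to 93.7 CPM), FAP (62.2 to 118 CPM) and LUM (20.4 to 47.6 CPM) of the mesenchymal list were counted as well. S100A4 of that list went the other way, at 1.41 to 5.76 CPM in SW1783 and 221 to 432 CPM in HT29. The glial ALDH1L1 was likewise higher in HT29, at 5.73 to 10.8 CPM. Of markers of other cell types, the neuronal genes SYT1 and SNAP25 and the leukocyte gene PTPRC were counted in SW1783, whereas RBFOX3 and CD3E stayed at 0.322 CPM or below. CD14, the remaining leukocyte marker, was at 2.27 to 5.64 CPM in HT29 and at most 0.433 CPM in SW1783. Of the endothelial markers PECAM1 was at 1.34 to 2.61 CPM in HT29 and 0.127 to 1.35 CPM in SW1783, and VWF and CDH5 stayed at 0.283 CPM or below in both lines. Nothing in the labels says that the 3 replicates of a group were separate cultures, so the p-values measure the spread between these libraries. In HT29 the second library of the high dose stood apart, with the lowest total of all (15941250 counts), and results that rest on it are given with and without it.

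In SW1783, collagen mRNA made up a sizeable part of the library, and in HT29 very little. The 44 genes together held 1.38 to 1.42% of all counts in the batch B vehicle libraries of SW1783 and 0.0179 to 0.0193% in those of HT29. The normalized count is the count divided by the size factor of the library. In SW1783 it averaged at least 100 for 24 members, while 7 lay between 10 and 100 and 13 were lower. In HT29 the numbers were 6, 2 and 36. Levels of different genes are compared only as CPM per kilobase of transcript. In the SW1783 vehicle the order began with the chains of type I, COL1A1 at 578.8 ± 18.1 (SD, n = 3) and COL1A2 at 425.8 ± 9.59, followed by the type VI chains COL6A1 at 399.2 ± 13.2 and COL6A2 at 334.1 ± 15.2. COL5A1, the main chain of the fibril-initiating type V, followed at 260.6 ± 6.35. The basement membrane chain COL4A2 came next at 105 ± 2.46 and stood above its partner COL4A1 at 50.3 ± 0.456. The ranges of the 3 libraries did not overlap between any neighbours among these first 6 genes, whereas COL5A2 and COL12A1, in seventh and eighth place, overlapped. The order depended in part on the length used, since per kilobase of coding sequence 14 of the 24 genes kept their place and COL6A1 then stood above COL1A2 with overlapping ranges.

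**Figure D1:**
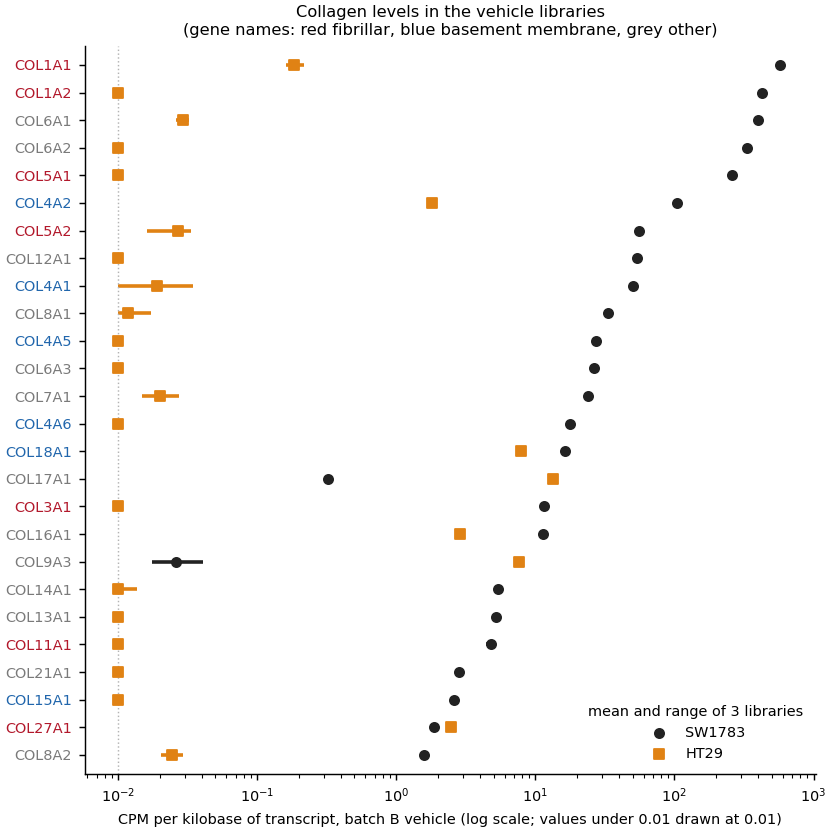
CPM per kilobase of transcript (x, log scale) of the 26 collagen genes whose normalized counts averaged at least 100 in either line, in the batch B vehicle, with the mean (symbol) and range (line) of 3 libraries per line. SW1783 spans 1.58 (COL8A2) to 578.8 (COL1A1) for its 24 genes, while COL17A1, COL9A3 and COL27A1 are the genes that stand higher in HT29.

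The order in HT29 was led by COL17A1, the transmembrane collagen of epithelial attachment plaques, at 13.5 ± 0.918 CPM per kilobase, followed by COL18A1, a basement membrane proteoglycan, at 7.91 ± 0.49 and COL9A3, a FACIT chain, at 7.58 ± 0.617, whose ranges overlapped. COL16A1 stood at 2.89 ± 0.0608, COL27A1 at 2.47 ± 0.145 and COL4A2 at 1.81 ± 0.0618. COL1A1 (5 to 42 counts per library) and COL11A2 (4 to 21) were at low counts. COL1A2, COL11A1, COL24A1, COL4A5, COL4A6 and COL15A1 had no count in any of the 18 HT29 libraries, and the other 30 members below a mean of 10 reached at most 16 counts in a library. In SW1783, COL5A3, COL17A1, COL4A4, COL4A3, COL9A2, COL11A2 and COL6A6 were between 4 and 59 counts per library. COL2A1, COL10A1, COL19A1, COL20A1, COL22A1, COL23A1, COL24A1, COL25A1, COL26A1, COL28A1, COL6A5 and COL9A3 reached at most 15 counts, and COL9A1 had none.

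At the high dose of ACD in SW1783, fibrillar collagens were lower, with type I lowest against its vehicle. The well-counted type IV and type VI chains stayed within 1.5-fold of vehicle, and COL15A1 was the one member called higher. A gene was called when its adjusted p-value (DESeq2 Wald test, two-sided, Benjamini-Hochberg over all genes tested) was under 0.05 and it changed by more than 1.5-fold. Of the 34 members tested, 9 were called lower, against 9.28% of all 20033 genes tested, and 1 was called higher, against 8.41%. By adjusted p-value alone, 19 were lower (21.9% of all genes) and 3 were higher (23.1%). Over the 24 members with a mean of 100 or more the median log2 fold change was -0.48, beside 0.02 over the 11263 genes of that level. In bulk RNA, fewer cells that express a gene and less RNA per cell cannot be told apart. Markers moved at this dose as well. Among the mesenchymal markers THY1 was at 413 to 427 CPM in the vehicle and 219 to 227 CPM at the high dose, PDGFRB at 75.5 to 78.5 and 31.4 to 32.6 CPM and FAP at 85.2 to 87.3 and 62.2 to 70.6 CPM. LUM was at 33.3 to 35.9 and 20.4 to 21.7 CPM and S100A4 at 4.56 to 5.28 and 1.41 to 2.43 CPM. VIM was higher, at 4170 to 4560 and 4890 to 4970 CPM, so that the sum of the list was 4790 to 5180 and 5240 to 5320 CPM. The glial SLC1A3 went from 33.1 to 35.2 CPM to 5.58 to 5.92 CPM, KRT18 of the epithelial list from 222 to 230 CPM to 68.7 to 75 CPM, the neuronal SNAP25 from 33.9 to 36 CPM to 6.91 to 8.09 CPM, while the neuronal SYT1 went up from 30.7 to 32.1 CPM to 38.4 to 40.2 CPM, and PTPRC went from 12.7 to 14.2 CPM to 3.28 to 4.91 CPM, with EPCAM, KRT20, CDX2 and CD3E at or near 0 in both groups. The part of these shifts in the collagen differences was not tested.

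COL1A1 (ENSG00000108821, chromosome 17, 50184101 to 50201632, minus strand, GRCh38) encodes the major chain of type I collagen. Its 3 libraries had normalized counts of 68223, 71542 and 68185 in the vehicle, 67999, 65415 and 62097 at the low dose, 52459, 53685 and 49632 at the medium dose and 17349, 16161 and 16168 at the high dose. The low-dose values all lay below the vehicle values, those of the medium dose lay below the low-dose values, and those of the high dose lay far below every other library. At the high dose COL1A1 fell by 2.07 ± 0.04 (SE) on the log2 scale, that is 4.19-fold, with an adjusted p-value too small for the software to print. COL1A2 (ENSG00000164692, chromosome 7, 94394895 to 94431227, plus strand), the partner chain, went from 44509, 43958 and 42743 to 12425, 11595 and 11301. No high-dose library came near the vehicle, and the gene fell by 1.89 ± 0.05 (adjusted p = 2.18e-285). Both chains of type I therefore changed by similar amounts, 4.19-fold and 3.72-fold, and their ratio per kilobase moved from 1.31 to 1.40 in the vehicle libraries to 1.20 to 1.23 at the high dose.

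Among the other fibrillar members, COL3A1 (ENSG00000168542), the type III chain of soft connective tissue, stood at 1282, 1368 and 1222 in the vehicle and at 420.2, 421.6 and 380.7 at the high dose, and fell by 1.67 ± 0.08 (adjusted p = 5.27e-94). COL5A1 (ENSG00000130635, chromosome 9, 134641803 to 134844843, plus strand) stood at 43778, 45605 and 44246 in the vehicle and at 16039, 14582 and 15495 at the high dose. It fell by 1.54 ± 0.03, and no high-dose library came within reach of the other groups. Its partner COL5A2 stood at 7689, 7665 and 7528 in the vehicle and at 5715, 5515 and 5580 at the high dose. That difference of -0.45 ± 0.03 passed the adjusted p-value (7.33e-53) but not the 1.5-fold limit, so that the chains of type V changed by unequal amounts, and their ratio per kilobase, COL5A1 to COL5A2, was 4.61 to 4.81 in the vehicle and 2.14 to 2.27 at the high dose. COL11A1, a chain of the cartilage type XI that is also built into type V fibrils, stood at 741.9, 728 and 655.7 in the vehicle and at 312.6, 305.4 and 308.7 at the high dose, and fell by 1.20 ± 0.08 (adjusted p = 1.87e-46). COL27A1 was at -0.05 ± 0.11 with overlapping groups (adjusted p = 0.741). In all, 5 of the 10 fibrillar members tested were called lower and none higher, and the median of the 7 with a mean of 100 or more was -1.54. Unnamed genes overlap exons of COL1A1, COL5A1 and COL15A1 on the opposite strand, and the strand setting of the counting was not stated.

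**Figure D2:**
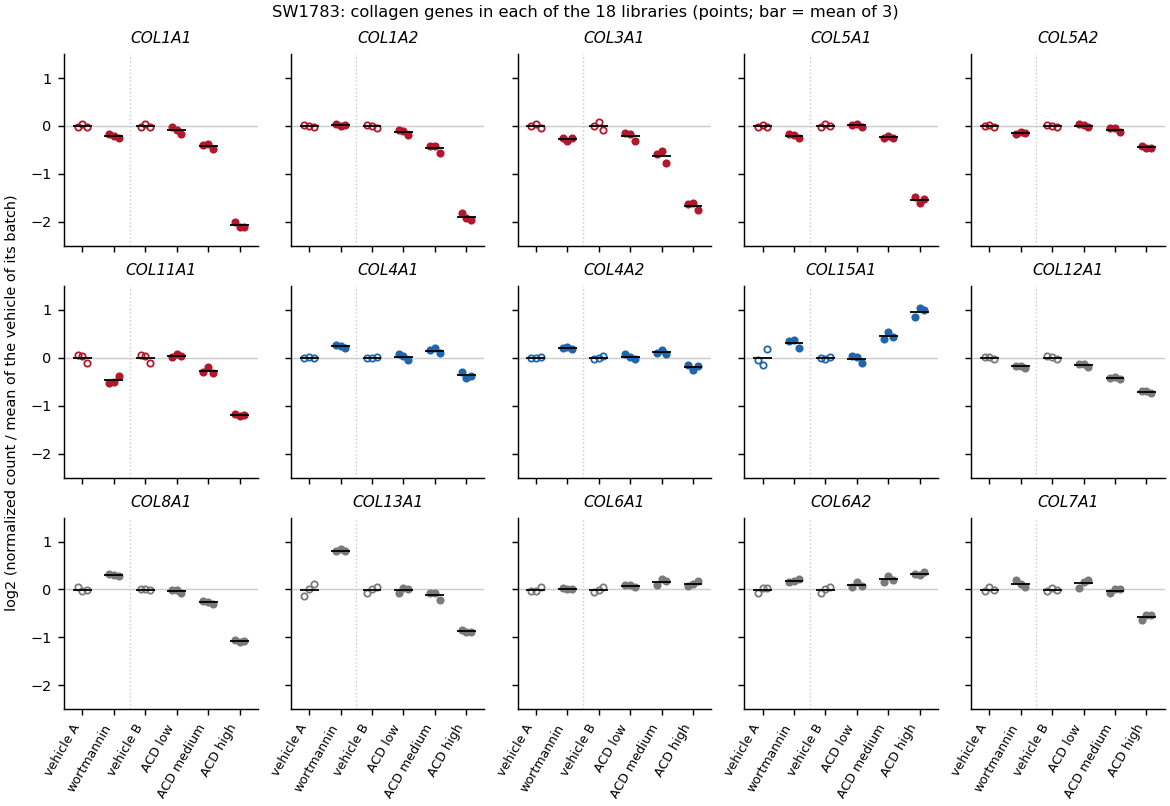
Each panel plots, for 1 collagen gene in SW1783, the log2 ratio of the normalized count to the mean of the vehicle of its batch (y) in the 3 libraries of each of 6 groups (x; open points vehicle, filled points treated, bar the mean), with fibrillar genes in red, basement membrane genes in blue and the others in grey. The high-dose libraries of COL1A1, COL1A2, COL3A1 and COL5A1 lie far below the rest, COL6A1 and COL6A2 lie slightly above vehicle, and COL13A1 lies above vehicle with wortmannin and below it at the high dose.

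Of the fibrillar genes called lower, only COL5A1 and COL11A1 had a window in the RefSeq table on GRCh38.p14. They are shown by the 250 bases before the start site. Capitals mark a GC box (GGGCGG or CCGCCC) or a CCAAT box (CCAAT or ATTGG) on either strand.
COL5A1, chr9:134641553-134641802, plus strand: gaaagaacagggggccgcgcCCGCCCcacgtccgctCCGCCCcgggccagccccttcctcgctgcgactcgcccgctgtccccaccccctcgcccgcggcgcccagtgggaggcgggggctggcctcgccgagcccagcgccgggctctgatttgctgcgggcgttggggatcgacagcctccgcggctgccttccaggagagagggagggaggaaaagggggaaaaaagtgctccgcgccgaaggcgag
COL11A1, chr1:103108523-103108772, minus strand: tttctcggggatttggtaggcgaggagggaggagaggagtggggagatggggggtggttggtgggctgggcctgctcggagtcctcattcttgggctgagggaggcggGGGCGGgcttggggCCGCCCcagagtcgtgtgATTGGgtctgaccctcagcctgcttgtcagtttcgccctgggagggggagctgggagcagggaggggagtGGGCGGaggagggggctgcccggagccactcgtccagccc
The table held 44 windows of 32 of the 44 collagen genes. It held none of COL1A1, COL1A2, COL3A1 and COL8A1, which were called lower, so the shares below do not cover them. A GC box stood in 24 of the 44 windows (54.5%), against 42.6% of all 35116 windows in the table, a CCAAT box in 12 (27.3%), against 32.0%, and a TATA box (TATAAA) in 8 (18.2%), against 10.7%. These matches describe the letters only. Of the fibrillar genes shown, COL11A1 held both boxes and COL5A1 the GC box. The GENCODE span of COL11A1, on the minus strand, reaches to 103108872, so that its window lies within that span.

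The well-counted basement membrane collagens stayed within 1.5-fold of vehicle at the high dose, apart from COL15A1, with COL4A5 close to that limit. COL4A1 stood at 6603, 6684 and 6712 in the SW1783 vehicle and at 5463, 5001 and 5111 at the high dose (-0.36 ± 0.04, adjusted p = 3.07e-21), and COL4A2 stood at 13444, 13573 and 14101 and at 12342, 11485 and 12110 (-0.20 ± 0.03, adjusted p = 1.23e-08). COL4A5 was at -0.55 ± 0.04 and COL4A6 at -0.28 ± 0.04, COL18A1 at -0.38 ± 0.06. These 5 of the 8 members tested passed the adjusted p-value with groups that did not overlap, beside 21.9% of all genes lower by that measure. None of the 5 passed 1.5-fold. COL15A1 (ENSG00000204291, chromosome 9, 98943179 to 99070792, plus strand), a proteoglycan at the border of basement membrane and fibrils, went the other way. It stood at 274.6, 271.6 and 280 in the vehicle, at 361.6, 397.9 and 369.4 at the medium dose and at 497.8, 562.2 and 551.8 at the high dose. It rose by 0.97 ± 0.10 (adjusted p = 6.9e-23), that is 1.96-fold, and the 3 groups did not overlap. COL4A3 and COL4A4, at means of 11.6 and 17.6, did not pass (adjusted p = 0.747 and 0.644).

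Type IV chains are encoded in head-to-head pairs that share the stretch between their start sites. By RefSeq start sites, COL4A1 and COL4A2 lie 126 bases apart on chromosome 13, COL4A6 and COL4A5 379 bases apart on chromosome X, and COL4A4 and COL4A3 418 bases apart on chromosome 2. The gene ends of GENCODE differ from these start sites for some of the genes. The first stretch is shown whole and the pair on chromosome X by the 250 bases before COL4A5, because these 4 genes were the type IV genes counted well in SW1783. The window before the RefSeq start site of COL15A1, the member called higher, stands beside them. The GENCODE span of COL15A1 given above begins at 98943179, so that this window lies within that span. Likewise the GENCODE span of COL4A2 begins at 110305812, so that the stretch between COL4A1 and COL4A2 lies within it. Capitals mark the same boxes as above.
COL4A1 and COL4A2, chr13:110307158-110307283, plus strand: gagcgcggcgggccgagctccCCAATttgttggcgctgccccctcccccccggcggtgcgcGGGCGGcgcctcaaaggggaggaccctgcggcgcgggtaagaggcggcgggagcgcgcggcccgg
COL4A5, chrX:108439588-108439837, plus strand: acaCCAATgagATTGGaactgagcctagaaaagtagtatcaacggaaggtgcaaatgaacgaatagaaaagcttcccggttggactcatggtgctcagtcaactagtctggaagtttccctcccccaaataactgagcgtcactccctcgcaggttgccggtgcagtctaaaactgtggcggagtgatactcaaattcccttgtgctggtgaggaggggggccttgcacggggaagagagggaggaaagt
COL15A1, chr9:98943657-98943906, plus strand: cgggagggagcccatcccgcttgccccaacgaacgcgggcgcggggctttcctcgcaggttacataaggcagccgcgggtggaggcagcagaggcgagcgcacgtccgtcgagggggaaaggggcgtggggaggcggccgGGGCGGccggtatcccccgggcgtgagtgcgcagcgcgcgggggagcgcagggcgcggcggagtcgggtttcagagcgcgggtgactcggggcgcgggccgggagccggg
A CCAAT box stood in windows of all 4 genes COL4A1, COL4A2, COL4A5 and COL4A6, which share bases within a pair, and in none of COL15A1. Members of a pair stood at unlike levels. In SW1783 the ratio of COL4A1 to COL4A2 per kilobase was 0.469 to 0.485 in the vehicle and 0.416 to 0.436 at the high dose. In HT29 COL4A2 had 164 to 380 counts per library and COL4A1 1 to 8, while both COL4A5 and COL4A6 were without a count. The gene annotation has 2 antisense genes on the strand opposite to COL4A2 exons (COL4A2-AS1 and COL4A2-AS2), whose reads cannot be told apart from those of COL4A2 without a known strand setting.

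Of the other collagens, 4 were called lower at the high dose and none higher. COL12A1 (ENSG00000111799, chromosome 6, 75084326 to 75206267, minus strand), a FACIT collagen that lies along type I fibrils, stood at 13118, 12920 and 12557 in the vehicle, at 11708, 11755 and 11214 at the low dose, at 9592, 9804 and 9463 at the medium dose and at 7916, 7939 and 7715 at the high dose. The 4 groups stood in the order of the dose without overlap. COL12A1 fell by 0.71 ± 0.03 at the high dose (adjusted p = 3.19e-148). COL8A1 (ENSG00000144810, chromosome 3, 99638475 to 99799226, plus strand), a short-chain network collagen of vessel walls, stood at 3752, 3728 and 3673 in the vehicle and at 1782, 1728 and 1755 at the high dose, and fell by 1.08 ± 0.04 (adjusted p = 3.72e-173). Its relative COL8A2 was at 0.07 ± 0.14 (adjusted p = 0.726). COL21A1, a FACIT chain, went from 233.6, 258.4 and 227.9 to 134.3, 128.8 and 118.8 (-0.92 ± 0.13, adjusted p = 3.02e-11), and the transmembrane COL13A1 from 317.7, 335.5 and 343.4 to 184.1, 179.3 and 179.6 (-0.88 ± 0.11, adjusted p = 9.18e-15). In both, every high-dose library lay below every vehicle library.

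The type VI chains, which form beaded filaments near the cell surface, did not follow type I. COL6A1 stood at 32994, 33647 and 35282 in the vehicle and at 35601, 36592 and 38457 at the high dose, a difference of 0.12 ± 0.03 (adjusted p = 0.00154). COL6A2 stood at 22119, 23622 and 24174 and at 29020, 28653 and 29839, a difference of 0.32 ± 0.04 (adjusted p = 3.22e-19), and COL6A3 was at -0.18 ± 0.04 (adjusted p = 4.15e-05). These differences passed the adjusted p-value and were below 1.5-fold. COL6A1 per kilobase was 1.17 to 1.22 times COL6A2 in the vehicle and 1.01 to 1.06 times at the high dose. COL7A1, the anchoring fibril collagen, was at -0.57 ± 0.04, and the FACIT chains COL14A1 and COL16A1 were each at -0.48 (SE 0.07 and 0.06), all past the adjusted p-value and short of 1.5-fold. The median of the 11 other collagens with a mean of 100 or more was -0.48.

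The medium and low doses gave smaller differences. At the medium dose 1 of the 26 members tested was called, COL3A1, which fell by 0.62 ± 0.08 (867, 898.4 and 752, adjusted p = 2.68e-15), and 3.78% of all genes were called in either direction. COL3A1 was no longer past 1.5-fold without vehicle replicate 2 (-0.58) or without medium-dose replicate 3 (-0.55). By adjusted p-value alone 13 members were lower (14.7% of all genes) and 6 were higher (15.3%). Among them COL1A2 was at -0.46 ± 0.05, COL12A1 at -0.42 ± 0.03 and COL1A1 at -0.42 ± 0.04, while COL15A1 was at 0.45 ± 0.10. COL4A1 and COL4A2 stood slightly above vehicle, at 0.15 ± 0.04 and 0.12 ± 0.03, and below it at the high dose. The difference between the doses was tested directly. High against medium called 7 of 31 members lower and none higher, against 5.38% of all genes called lower. These were COL1A1 (-1.65 ± 0.04), COL1A2 (-1.43 ± 0.05), COL5A1 (-1.30 ± 0.03), COL3A1 (-1.04 ± 0.08), COL11A1 (-0.93 ± 0.08), COL8A1 (-0.82 ± 0.04) and COL13A1 (-0.75 ± 0.11). COL12A1 was at -0.29 ± 0.03 in that comparison. Cell type markers moved at the medium dose too, with SLC1A3 at 15.7 to 17.2 CPM, SNAP25 at 17 to 19 CPM, PTPRC at 7.08 to 8.64 CPM, KRT18 at 153 to 168 CPM, THY1 at 323 to 334 CPM and PDGFRB at 52.3 to 57.3 CPM, all below the vehicle ranges given above, SYT1 at 29.7 to 32.1 CPM, and VIM above vehicle at 4650 to 4920 CPM. Their part in the collagen differences was not tested. At the low dose DESeq2 called none of 22 members and edgeR none, and 0.119% of all genes were called. Of all 44 members, tested or not, 10 were at an unadjusted p under 0.05 by DESeq2, beside 1544 genes of the whole table. No share of all genes is given at that level, so these counts are not compared. COL12A1 (-0.15 ± 0.03, adjusted p = 1.66e-06) and COL4A5 (-0.12 ± 0.04, adjusted p = 0.0224) were the members past the adjusted p-value, and COL1A1 was at -0.09 ± 0.04 (adjusted p = 0.17).

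**Figure D3:**
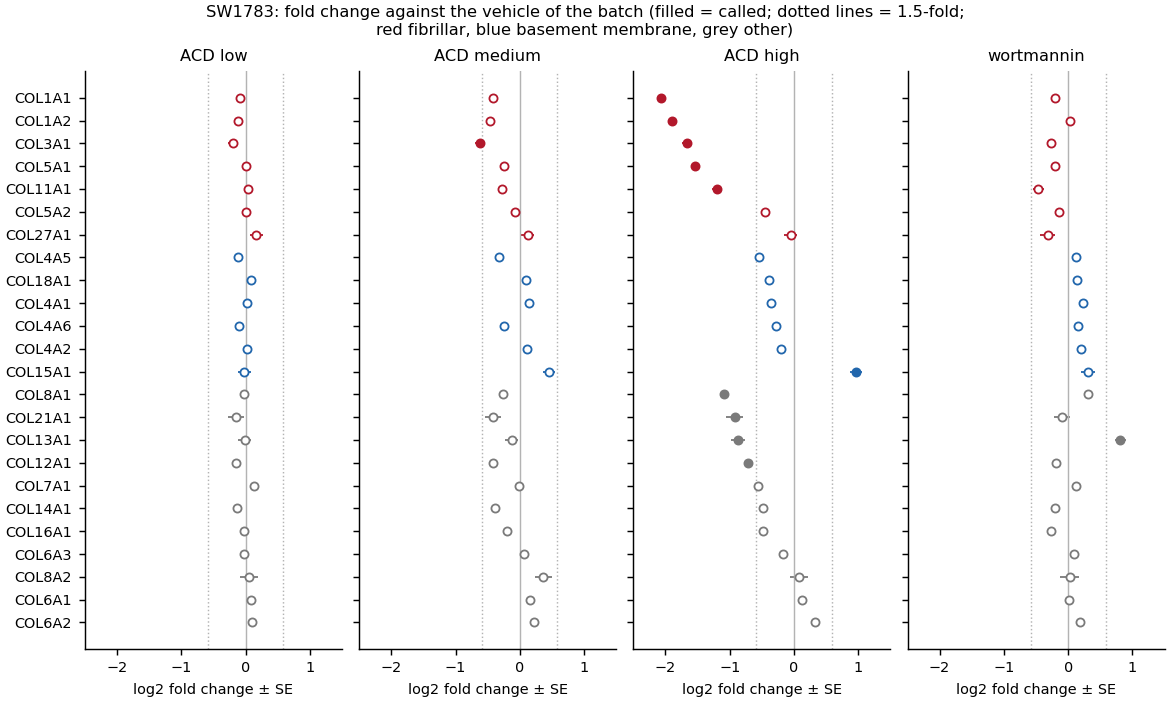
Log2 fold change ± SE (x) of the 24 collagen genes whose normalized counts averaged at least 100 in SW1783 (y, ordered within class by the high-dose value) for the 3 ACD doses and wortmannin, each against the vehicle of its batch with 3 libraries per group. Filled points passed the adjusted p-value and 1.5-fold (dotted lines), which 10 genes did at the high dose, COL3A1 at the medium dose and COL13A1 with wortmannin.

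Summed over members, collagen genes of SW1783 held 1.38 to 1.42% of all counts in the batch B vehicle, 1.3 to 1.36% at the low dose, 1.12 to 1.17% at the medium dose and 0.718 to 0.735% at the high dose. The 4 groups did not overlap in this share. Fibrillar genes accounted for most of this, with 0.812 to 0.849% in the vehicle and 0.224 to 0.24% at the high dose. The basement membrane genes held 0.138 to 0.143% and 0.104 to 0.111%, and the others 0.419 to 0.436% and 0.385 to 0.40%. Because a share depends on the total, the genes of the mitochondrial genome were also left out of it, and the shares were then 1.45 to 1.5% in the vehicle, 1.4 to 1.46% at the low dose, 1.26 to 1.32% at the medium dose and 0.789 to 0.81% at the high dose, so that the vehicle and the low dose overlapped.

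**Figure D4:**
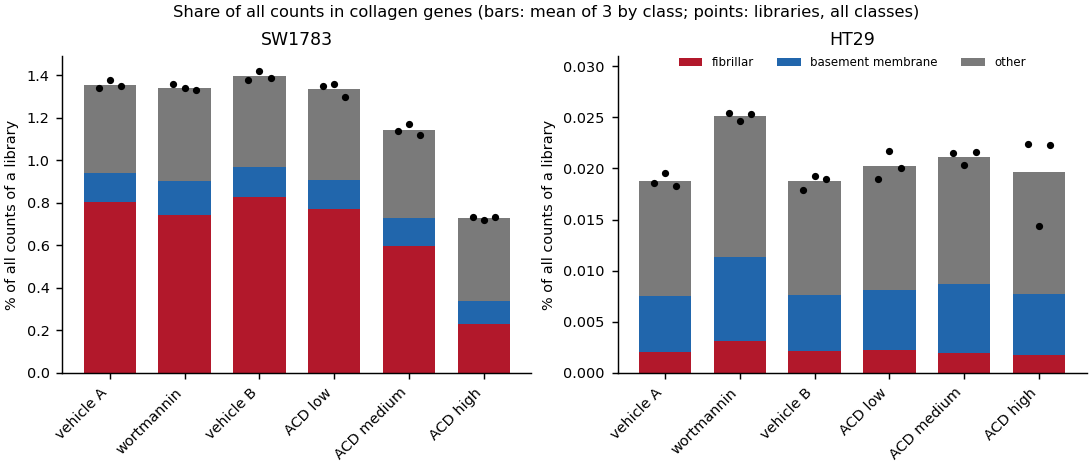
Percent of all counts of a library in collagen genes (y, from 0, with a scale of its own for each line) in the 6 groups of SW1783 and of HT29 (x), as the mean of 3 libraries by class (bars) and the total of each library (points). In SW1783 the red fibrillar part is 0.828% of counts in the batch B vehicle and 0.23% at the high dose, and in HT29 no library exceeds 0.0254% in all classes.

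With wortmannin in SW1783 1 member was called, and the type I chains differed from vehicle by at most 0.21 on the log2 scale. COL13A1 (ENSG00000197467, chromosome 10, 69801880 to 69964275, plus strand), which fell at the high dose of ACD, was at 371.6, 412.4 and 441.9 in the batch A vehicle and at 709.9, 735 and 708.5 with wortmannin. Every wortmannin library lay above every vehicle library. It rose by 0.81 ± 0.09 (adjusted p = 3.73e-19). That was 1 of 28 members tested, against 2.67% of all genes called in either direction. COL1A1 stood at 77049, 79835 and 76357 in the vehicle and at 69152, 67599 and 65100 with wortmannin (-0.21 ± 0.02, adjusted p = 2.33e-20), and COL1A2 was at 0.03 ± 0.02 (adjusted p = 0.266). By adjusted p-value alone 9 members were lower (18.8% of all genes) and 11 higher (13.0%). All 6 basement membrane genes with a mean of 100 or more were among the higher ones, at 0.12 to 0.31, and 6 of the 8 fibrillar members tested were among the lower ones, down to -0.46 ± 0.08 for COL11A1. COL8A1 was at 0.31 ± 0.03. Markers moved with wortmannin as well. THY1 went from 399 to 415 CPM in the vehicle to 295 to 302 CPM and PTPRC from 12.8 to 14 to 9.41 to 11.2 CPM, while PDGFRB went from 71.8 to 75.7 to 92.5 to 93.7 CPM, FAP from 83.6 to 86.5 to 110 to 118 CPM, SLC1A3 from 33.2 to 34.3 to 46.4 to 50.1 CPM, SNAP25 from 33.4 to 35 to 46.3 to 47.4 CPM and SYT1 from 30 to 32.3 to 36.4 to 36.6 CPM. Their part in the collagen differences was not tested.

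In HT29 no collagen gene was called at any ACD dose. DESeq2 tested 8 members at the high dose, where 3.13% of all genes were called, and 15 each at the medium and low dose, with 0.786% and 0.285%, and 8 for high against medium, with 0.687%. Of all 44 members, tested or not, 4, 3, 1 and 1 were at an unadjusted p under 0.05 by DESeq2. In the same order 3168, 1858, 1257 and 1551 genes of the whole table were at that level. Without a share of all genes, these counts are not compared. No member was called by edgeR. COL16A1, a FACIT chain, stood at 370.7, 363.6 and 375.6 in the vehicle, at 398.5, 471.3 and 423.7 at the low dose, at 466.6, 466.9 and 483.6 at the medium dose and at 561, 427.4 and 569.7 at the high dose. All treated libraries lay above all vehicle libraries, and the high-dose difference of 0.50 ± 0.12 passed the adjusted p-value (0.000757) but not 1.5-fold. Without the second high-dose library it was 0.61 ± 0.10 (adjusted p = 1.22e-07) and called. COL18A1 stood at 961.1, 1039 and 1033 in the vehicle and at 1531, 875.3 and 1481 at the high dose, where the second library fell below the vehicle. The difference was 0.36 ± 0.18 (adjusted p = 0.218), and 0.57 ± 0.09 (adjusted p = 1.99e-09) without that library. COL17A1 stood at 1688, 1850 and 1826 in the vehicle and at 2295, 1479 and 2249 at the high dose (0.17 ± 0.14, adjusted p = 0.584), and at 0.34 ± 0.07 (adjusted p = 2.93e-05) without it. COL9A3, COL27A1 and COL4A2 were at 0.30 ± 0.11, -0.17 ± 0.16 and -0.06 ± 0.12 (adjusted p = 0.0618, 0.648 and 0.852), and without that library at 0.34 ± 0.12, 0.01 ± 0.11 and -0.11 ± 0.14 (adjusted p = 0.0232, 0.96 and 0.646). Of the epithelial markers, VIL1 went from 167 to 184 CPM in the vehicle to 131 to 145 CPM at the high dose, and CDX2 from 4.98 to 5.25 to 5.58 to 6.41 CPM. EPCAM, KRT20, CDH1 and KRT18 overlapped the vehicle. The part of these shifts was not tested.

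With wortmannin, 1 of the 6 members tested in HT29 was called, against 2.7% of all genes. COL18A1 (ENSG00000182871, chromosome 21, 45405165 to 45513720, plus strand), whose C-terminal fragment is known as endostatin, stood at 957.5, 933.9 and 872 in the vehicle and at 1533, 1490 and 1533 with wortmannin, and rose by 0.72 ± 0.07 (adjusted p = 4.71e-21). COL27A1 stood at 427.2, 420.2 and 384.2 and at 632.8, 597.7 and 606.5, a difference of 0.58 ± 0.10 (adjusted p = 1.54e-07) just short of 1.5-fold. It was called without vehicle replicate 1 or 2 or without wortmannin replicate 2. COL4A2 stood at 284.8, 271.1 and 251.9 and at 175, 216.1 and 200.6 (-0.45 ± 0.14, adjusted p = 0.012). In these 3 genes no wortmannin library overlapped the vehicle. COL17A1 was at 0.22 ± 0.07 (adjusted p = 0.00814), COL16A1 at 0.31 ± 0.12 (adjusted p = 0.055) and COL9A3 at 0.19 ± 0.11 (adjusted p = 0.212). Exons of SLC19A1, TCFL5 and PEF1-AS1 lie on the strand opposite to exons of COL18A1, COL9A3 and COL16A1, so that their reads cannot be told apart without a known strand setting.

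**Figure D5:**
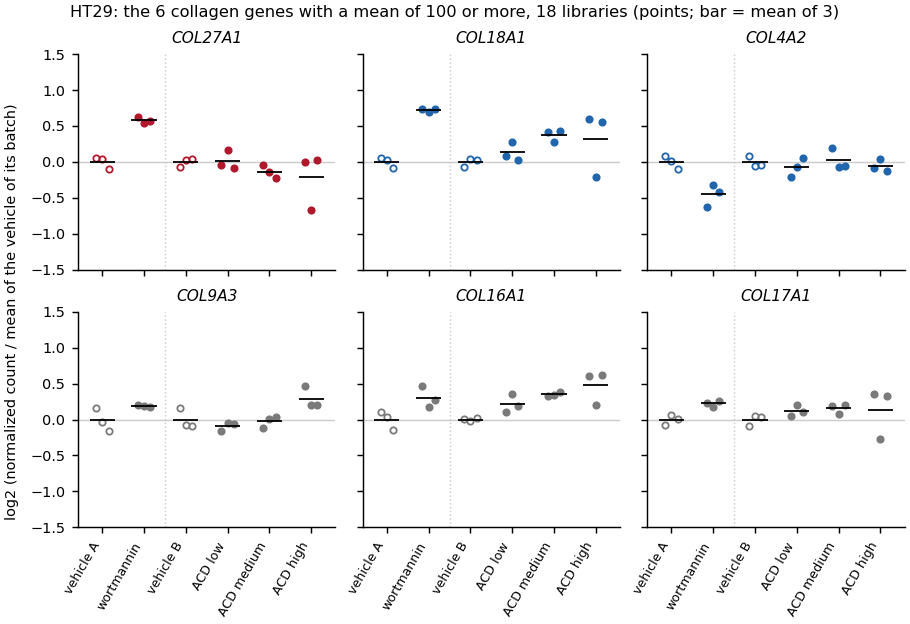
Each panel plots, for 1 of the 6 collagen genes whose normalized counts averaged at least 100 in HT29, the log2 ratio of the normalized count to the mean of the vehicle of its batch (y) in the 3 libraries of each of 6 groups (x; open points vehicle, filled points treated, bar the mean). COL18A1 and COL27A1 lie above vehicle and COL4A2 below it with wortmannin, and at the high dose the second library lies apart from the other two in COL27A1, COL18A1, COL16A1 and COL17A1.

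Whether the lines differed in their response was tested as the interaction of cell line and treatment, as the response in SW1783 minus that in HT29. The fit took 1 dispersion per gene for both lines, although HT29 libraries of a vehicle group differed more among themselves than those of SW1783. The SEs and p-values of the interaction may therefore understate the spread of HT29. For COL4A2 with wortmannin, the SE is below that of its HT29 response alone. At the high dose 5 of 32 members were called, with 14.6% of all genes, at the medium dose 1 of 27 with 3.31%, and with wortmannin 5 of 26 with 3.39%. At the high dose the DESeq2 estimate for COL1A1 was -2.10 ± 0.24 (adjusted p = 2.02e-16), with HT29 at 5 to 42 counts per library. COL16A1 (-1.04 ± 0.11, adjusted p = 9.02e-20) and COL18A1 (-0.79 ± 0.19, adjusted p = 0.000261) are counted well in both lines. Without the second HT29 high-dose library these were -2.35, -1.14 and -1.004 (adjusted p = 2.94e-20, 1.16e-32 and 5.32e-22). COL12A1 and COL9A2 were the remaining calls, reached at most 2 and 10 counts in an HT29 library, and lost the call without 1 library in 5 and 7 cases, for instance both without HT29 vehicle replicate 2 (adjusted p = 0.106 and 0.115). At the medium dose COL1A1 was called (-0.70 ± 0.23, adjusted p = 0.0273) and lost the call under edgeR (adjusted p = 0.0847) and without HT29 vehicle replicate 1 or 3 or HT29 medium-dose replicate 1 or 2 (adjusted p = 0.0641, 0.103, 0.073 and 0.0725). With wortmannin COL27A1 (-0.92 ± 0.13, adjusted p = 1.16e-10), COL18A1 (-0.61 ± 0.07, adjusted p = 3.89e-18) and COL16A1 (-0.60 ± 0.12, adjusted p = 3.76e-05) were lower in SW1783 and COL4A2 (0.62 ± 0.09, adjusted p = 6.65e-11) was higher. COL18A1 was no longer past 1.5-fold without HT29 vehicle replicate 3 (-0.58), COL4A2 without HT29 wortmannin replicate 1 (0.55), and COL16A1 without either of these (-0.54 and -0.51) or without SW1783 vehicle replicate 1 or SW1783 wortmannin replicate 2 or 3 (-0.58, -0.56 and -0.58). COL6A3, called as well, had at most 6 counts in HT29. For COL1A2, COL11A1, COL15A1, COL4A5 and COL4A6, without counts in HT29, the lines could not be compared.

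The vehicles of the 2 batches did not differ in any collagen gene by the call rule. Batch B against batch A called none of 42 members in SW1783 (4 at an unadjusted p under 0.05, none by edgeR) with 0.00348% of all genes, and none of 30 in HT29 (0 at an unadjusted p under 0.05, none by edgeR) with 0.0% of all genes. At that unadjusted level stood 255 genes of the whole table in SW1783 and 50 in HT29, for which no share is given. Vehicle libraries of equal number in batches A and B resembled each other more than libraries within a vehicle group. The chi-square of their counts, divided by its degrees of freedom, lay between 1.53 and 1.64 for SW1783 and between 1.46 and 1.54 for HT29, against 2.06 to 2.31 and 3.78 to 17.3 within groups. The labels do not say whether libraries of equal number share a culture or an RNA sample. If they do, the absence of calls carries no information on a difference between the batches.

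The machinery around the collagens was read from 5 lists at the high dose in SW1783, where 9.28% of all genes were called lower and 8.41% higher. Of 22 genes of procollagen folding and secretion, 21 were tested, 1 was called lower and 1 higher. SERPINH1, the collagen chaperone of the endoplasmic reticulum, fell by 0.63 ± 0.03 (adjusted p = 1.52e-116), and MIA3, the export receptor for procollagen, rose by 0.61 ± 0.04 (adjusted p = 4.91e-61). The median of the 19 with a mean of 100 or more was -0.04. The prolyl hydroxylase gene P4HA1 was at -0.49 ± 0.04 and SEC24D, of the COPII coat, at 0.48 ± 0.03 (adjusted p = 1.43e-34 and 7.75e-41), both short of 1.5-fold. Of 13 genes of propeptide removal and crosslinking, 12 were tested, 5 were called lower and none higher. The tolloid-like protease TLL1 fell by 1.56 ± 0.12 (adjusted p = 5.57e-38) and the procollagen N-proteinase ADAMTS2 by 1.22 ± 0.05 (adjusted p = 3.49e-150). LOXL1, a lysyl oxidase, fell by 1.02 ± 0.09, ADAMTS14 by 0.82 ± 0.09 and ADAMTS3, at a mean of 27.4 counts, by 1.49 ± 0.36, whereas LOX was at 0.40 ± 0.04.

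Of 10 collagen receptor genes 8 were tested, 2 were called higher and none lower. DDR2, a receptor kinase for fibrillar collagen, rose by 1.00 ± 0.03 (adjusted p = 9.37e-221), and ITGA2, an integrin chain that binds collagen, by 0.70 ± 0.03 (adjusted p = 1.41e-136). ITGA10 (-0.69 ± 0.32, adjusted p = 0.064) and MRC2 (-0.20 ± 0.03, adjusted p = 1.79e-08) had the most negative values. With wortmannin, where 1.72% of all genes were called higher, 3 of 8 were called higher, ITGA11 (0.75 ± 0.04), ITGA2 (0.72 ± 0.03) and ITGA1 (0.68 ± 0.04). Of 16 collagen-binding matrix genes, all tested, 4 were called lower and none higher. The thrombospondin THBS1 fell by 1.94 ± 0.04 and its relative THBS2 by 0.78 ± 0.04, the basement membrane proteoglycan gene HSPG2 fell by 0.75 ± 0.04, and LUM, which encodes lumican, fell by 0.59 ± 0.08, while NID1 and BGN were at 0.32 ± 0.04 and 0.07 ± 0.06, and FN1, the fibronectin gene, at -0.01 ± 0.02. In HT29 THBS1 rose at the high and medium dose, by 0.67 ± 0.11 and 0.63 ± 0.11 (adjusted p = 3.82e-07 and 7.23e-06), ITGA1 fell by 0.68 ± 0.11 at the high dose (adjusted p = 1.19e-07), and SEC24D and LOXL4 rose with wortmannin, by 0.60 ± 0.09 and 0.72 ± 0.11 (adjusted p = 4.12e-10 and 8.52e-10). Of 22 transcription factors that have been studied at collagen promoters, 2 were called higher and 3 lower. CEBPB rose by 1.46 ± 0.16, and by 0.72 ± 0.16 at the medium dose, and RFX1 by 0.61 ± 0.10, while CIITA fell by 1.18 ± 0.14 and SMAD3, a mediator of TGF-beta signalling, by 0.69 ± 0.04. SCX was called lower at a mean of 11.4 counts (-1.30 ± 0.55, adjusted p = 0.0428). SP1, whose protein binds GC boxes, was at 0.37 ± 0.05, and the CCAAT-binding factor genes NFYA, NFYB and NFYC were at -0.20 ± 0.07, -0.04 ± 0.09 and 0.22 ± 0.07.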

How the data were processed

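RNA of both lines was sequenced from directional libraries. Per the labels (the submitters' processing notes), reads were checked with FastQC 0.11.9, trimmed with Trim Galore 0.6.5, aligned to GRCh38 with STAR 2.7.3a and quantified with RSEM 1.3.3. The study's methods name the same tools with other versions of Trim Galore and STAR. The deposited values are expected counts per gene, not normalized, and RSEM divides reads that fit several genes between them. They were rounded to whole numbers, since 8.84% were not whole. DESeq2 1.42.0 (R 4.3.3, Wald test, default independent filtering) was fitted on all genes, per line on the 12 libraries of batch B and the 6 of batch A, on the 6 vehicle libraries for the batches, and on both lines for the interaction. edgeR 4.0.16 was an alternative. The fits were tested on simulated data. Gene positions are those of GENCODE 44 on GRCh38, whereas promoter windows and the distances between start sites are from RefSeq, which places some start sites elsewhere. Members with a mean of 100 or more were named with values, those from 10 with their range and the rest as a list. Of 5 pathway lists the called genes and the largest changes of each sign at the high dose in SW1783 were named. FN1, SP1, NFYA, NFYB and NFYC were added after their values were seen. Members and lists were chosen with earlier results of these data known. Vehicles of equal number in batches A and B deviated together from their group means (correlations 0.213 to 0.304 in SW1783 and 0.534 to 0.807 in HT29).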

Additional observations from a re-analysis of the deposited data

Results flagged for a closer look

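The response of 8 gene and treatment pairs was called different between the cell lines, by the interaction test of DESeq2 (Wald test, adjusted over all genes), among members with a mean of 10 or more normalized counts in both lines. Values are the log2 response in SW1783 minus that in HT29. The test took a common dispersion per gene for both lines and may understate the spread of HT29. At the high dose of ACD these were -2.10 for COL1A1, -1.04 for COL16A1 and -0.79 for COL18A1, and at the medium dose -0.70 for COL1A1. With wortmannin they were -0.92 for COL27A1, -0.61 for COL18A1, -0.60 for COL16A1 and 0.62 for COL4A2. Among all genes tested 14.6%, 3.31% and 3.39% were called at the high dose, at the medium dose and with wortmannin, and at both ACD doses the share of collagen genes called (5 of 32 and 1 of 27) was near that. COL1A1 at the medium dose lost its call in 5 of 16 alternatives, and with wortmannin COL16A1 lost it in 7, COL18A1 in 3 and COL4A2 in 1 of 16. COL1A1 was at 5 to 42 counts in the HT29 libraries. COL16A1 is at 0.50 in HT29 and -0.48 in SW1783 at the high dose, and no cause was tested.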

How the results depend on the processing

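In SW1783 the call of each of the 10 genes at the high dose was kept in 12 of 12 alternatives. By adjusted p-value alone the counts of collagen genes called in SW1783 were 22 (high), 19 (medium), 2 (low), 19 (high against medium) and 20 (wortmannin), in HT29 1 (high) and 4 (wortmannin), and for the interaction 2 at the medium dose. With an absolute log2 fold change over 1 they were 6, 0, 4 and 0 in SW1783 (high, medium, high against medium, wortmannin) and 0 in HT29 with wortmannin. Shares of all genes by adjusted p-value alone are given above for the high dose, the medium dose and wortmannin in SW1783. For the other counts by these 2 rules no share of all genes is given, so that they show only how the calls depend on the rule. For the interaction with wortmannin edgeR and TMM-derived size factors each called 3 and not COL16A1 (-0.56 under both) and COL18A1 (-0.58 under both), which stayed past the adjusted p-value. Leaving out 1 library gave 0 to 1 at the medium dose of SW1783, 0 to 1 at the high dose and 1 to 2 with wortmannin in HT29, and for the interactions 3 to 6 (high), 0 to 2 (medium) and 3 to 5 (wortmannin). In the other comparisons it gave 10 (SW1783 high), 7 (high against medium), 1 (SW1783 wortmannin) and 0.

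Without mitochondrial genes in the total, the collagen share was 1.43% (batch A vehicle), 1.42% (wortmannin), 1.47% (batch B vehicle), 1.44% (low), 1.28% (medium) and 0.802% (high) in SW1783 and 0.0207%, 0.0278%, 0.0207%, 0.0222%, 0.0233% and 0.0233% in HT29. By coding length 14 of 24 genes of SW1783 and 4 of 6 of HT29 kept their place.

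With the replicate number as a block (replicate block), 10, 1 and 0 collagen genes were called at the high, medium and low dose in SW1783, and 4 in the high-dose interaction in place of 5, without COL9A2 (adjusted p = 0.0578). It changed no other call. Treated and vehicle libraries of equal number correlated by -0.118 to 0.053 in SW1783 and -0.459 to 0.326 in HT29, and 1 and 4 of 12 correlated best with their own number. With so few libraries per group these values cannot decide whether libraries of equal number were paired, and the labels do not say.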
